A study of Mus musculus with 6 samples.

Results

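The cell cycle and DNA replication machinery was taken as the genes measured by probe sets annotated to exactly 1 gene whose symbol belongs to the Mcm, Cdc, numbered cyclin A, B, D and E, numbered Cdk, Cenp, Bub, Aurora, Polo-like kinase, Orc, DNA polymerase alpha, delta and epsilon, and E2F families, together with Mki67, Top2a, Pcna, Rrm1, Rrm2, Tyms, Birc5, Kif11, Kif20a, Tpx2 and Ube2c. The rule found 205 probe sets of 115 genes, among 12393 genes on the array. Because it works on symbols, it also took in genes of other function. By known role, 46 members act in G1 phase or DNA replication (the G1/S class), 37 act in G2 phase or mitosis (the G2/M class) and 32 act elsewhere, such as the small GTPase Cdc42 and its effectors or the kinases of transcription. Ccnb1, the main mitotic cyclin gene, was not analysed here, since no probe set was annotated to it alone.

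Liver RNA was taken at postnatal day 9 from 3 wild-type mice and from 3 transgenic mice, and each animal was measured on 1 Affymetrix array. The transgenic mice carried a conditional overexpression allele of Tcfeb (now Tfeb, a transcription factor of lysosomal and autophagy genes) together with the Alb-Cre line, in which the albumin promoter drives Cre recombinase in hepatocytes and their precursors. The controls are labelled wild type, so Cre expression and Tfeb overexpression differed between the groups together. The comparison asks how Tfeb overexpression changed gene expression in the liver.

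Cells enter the cycle when D and E cyclins activate the G1 kinases, which release E2F factors to switch on the replication genes. Origins of replication are then licensed by the origin recognition complex, Cdc6 and the Mcm helicase and copied by the polymerases. Later, cyclin A and B kinases, the spindle, the centromere proteins and the anaphase-promoting complex carry the cell through mitosis. Transcripts of the replication group generally peak at the G1/S border, through E2F sites, and those of the mitotic group in G2 phase, through the CHR and CCAAT elements bound by the DREAM complex, B-MYB and FOXM1, and NF-Y. Liver at this age holds hepatocytes that still divide and remaining blood-forming cells, so transcripts of dividing cells can come from both.

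Values are log2 expression per probe set on the deposited scale, and each difference is the transgenic mean less the wild-type mean, beside its standard error (SE) from limma fitted across all genes. A gene was called higher or lower where its Benjamini-Hochberg adjusted p was under 0.05. The median over probe sets with 1 gene lay between 6.81 and 6.83 for wild type and between 6.87 and 6.88 for transgenic arrays, and the number of arrays limits the precision. The probe set for Tfeb read 6.91, 6.63 and 6.58 in wild type and 6.52, 6.61 and 6.36 in transgenic liver, and since the construct is not described it does not check the labels. Transgenic replicate 1 had a male pattern of sex-linked transcripts (Xist 5.58, against 13.03 to 13.19 on the other arrays), so counts without it are given for all members, their classes and role groups, the further pathway genes and the cell markers. Bacterial hybridisation controls averaged 10.38 to 10.43 on the wild-type and 9.93 to 10.12 on the transgenic arrays. Scaling the arrays to them moved the median difference of all genes from -0.04 to 0.33 and the share of calls that were higher from 49.4% to 91.5%, so directions below hold on the deposited scale. In liver as a whole, a change in the number of dividing cells and a change in RNA per cell cannot be told apart.

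The promoter sequences of 6 members show the motifs searched in both classes, and each is the 150 bases before the gene's start in RefSeq's GRCm38.p6 annotation, printed in the direction of transcription. Capitals mark matches to the E2F motif, the CHR element or the CCAAT box. The E2F motif was TTCCCGC with its variants TTGGCGC and also TTGCCGC and finally TTCGCGC. The CHR element was TTTGAA and the box was CCAAT. All were searched on both strands, and in 2 member windows different motifs overlapped. The first 3 belong to G1/S members, of which Cdc6 (chr11:98908001-98908150 on the plus strand) and Pola1 (chrX:93632156-93632305 on the minus strand) rose and Mcm10 (chr2:5012792-5012941 on the minus strand) fell. The other 3 belong to G2/M members that rose, Cdc20 (chr4:118437344-118437493 on the minus strand), Ube2c (chr2:164769779-164769928 on the plus strand) and Mki67 (chr7:135716380-135716529 on the minus strand).
Cdc6: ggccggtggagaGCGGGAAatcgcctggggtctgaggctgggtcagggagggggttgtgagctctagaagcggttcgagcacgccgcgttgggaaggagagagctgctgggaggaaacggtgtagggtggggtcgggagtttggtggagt
Pola1: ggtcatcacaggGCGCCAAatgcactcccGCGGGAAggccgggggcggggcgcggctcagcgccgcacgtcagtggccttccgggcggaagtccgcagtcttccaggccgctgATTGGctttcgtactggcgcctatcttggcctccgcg
Mcm10: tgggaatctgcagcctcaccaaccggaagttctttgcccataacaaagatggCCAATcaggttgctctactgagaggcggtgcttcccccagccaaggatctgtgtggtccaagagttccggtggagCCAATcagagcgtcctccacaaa
Cdc20: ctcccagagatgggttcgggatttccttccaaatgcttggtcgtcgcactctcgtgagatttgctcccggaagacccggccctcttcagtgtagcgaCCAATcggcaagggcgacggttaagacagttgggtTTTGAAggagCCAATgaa
Ube2c: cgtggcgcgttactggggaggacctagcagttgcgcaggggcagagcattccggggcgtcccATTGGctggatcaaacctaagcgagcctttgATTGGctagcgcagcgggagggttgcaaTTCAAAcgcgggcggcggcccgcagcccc
Mki67: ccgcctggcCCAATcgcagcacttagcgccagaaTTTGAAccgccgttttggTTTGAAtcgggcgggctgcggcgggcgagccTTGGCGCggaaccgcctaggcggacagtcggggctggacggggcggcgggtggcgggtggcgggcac
Cdc6 held 1 E2F match, and Pola1 held 2 together with a CCAAT box 37 bases before the start. The stretch shown for Mcm10 held 2 CCAAT boxes and no E2F match of these letters. Cdc20 held a CHR element 18 bases before the start between 2 CCAAT boxes, and Ube2c a CHR element 29 bases before the start downstream of 2 CCAAT boxes. Mki67 held 2 CHR elements, 1 CCAAT box and 1 E2F match.

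More members rose than fell, and the rises were small. Of the 115 members, 37 rose, 10 fell and 68 did not pass, which is 40.9% called against 40.3% of all 12393 genes. The direction differed from that of the array as a whole: 32.2% of members rose against 19.9% of all genes, and 8.7% fell against 20.4%. Only 19 of the 115 members were among the dimmest 40% of genes on the array. With those dim genes left out, 31.4% of all genes rose and 22.3% fell (median 0.06). Of 96 members then tested, 40 rose and 9 fell (median 0.20). In the G1/S class 10 of 38 rose and 4 fell (median 0.08), and in the G2/M class 15 of 32 rose and 3 fell (median 0.26). The 3 transgenic values all lay above the 3 wild-type values for 48 members (41.7%, against 25.6% of all genes) and all below for 13 (11.3%, against 28.1%). The median difference was 0.15, from -0.79 for Mcm10 to 1.27 for Plk2, beside -0.04 over all genes, and Plk2 alone reached 2-fold. Without transgenic replicate 1, 27 members rose (23.5%, against 16.9% of all genes) and 8 fell. Of the 83 members with a cell cycle role, 23 rose in the fit of all arrays (27.7%, against 19.9%). Without transgenic replicate 1, 14 of them rose (16.9%, the same share as all genes) and 7 fell (8.43%, against 16.7%). Their median difference was then 0.12, beside -0.04 over all genes.

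Between the 2 cell cycle classes, mitotic genes gave the larger count of rises and replication genes were mostly not called. Members of other function rose about as often as the mitotic genes (14 of 32, 43.8%, median 0.24). In the G2/M class 15 of 37 members rose (40.5%, against 19.9% of all genes), 3 fell (8.11%) and 19 did not pass, with a median difference of 0.24. In the G1/S class 8 of 46 rose (17.4%), 4 fell (8.7%) and 34 did not pass, with a median of 0.07. Restricted to members whose transcripts are known to peak in their phase, 8 of 21 G2/M members rose and 0 fell (median 0.31), and all 21 differences were above 0, while 5 of 25 G1/S members rose and 1 fell (median 0.09). Without transgenic replicate 1, 8 G2/M members rose (21.6%, against 16.9% of all genes) and 3 fell. In the G1/S class 6 rose (13.0%) and 4 fell, and among members of other function 13 rose (40.6%) and 1 fell. Of the peaking members, 3 of 21 in the G2/M class (14.3%) and 3 of 25 in the G1/S class then rose. Both shares were below the 16.9% of all genes, so for rises the excess of peaking G2/M members was lost without this array. Peaking members are not given here with other arrays left out. In the whole G2/M class, 8 members also rose without wild-type replicate 2, against 15.8% of all genes. Among peaking members 0 G2/M members and 1 G1/S member then fell, with medians of 0.25 and 0.06. Among members not called, 3 of 19 peaking G1/S members (15.8%) and 1 of 13 peaking G2/M members (7.69%) had groups that did not overlap, against 23.1% of the 7403 genes not called. The gap between the classes is a description and was not tested as a set.

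Array by array, the mean of the 46 G1/S members was 7.88, 7.87 and 7.96 in wild type and 7.99, 7.96 and 7.90 in transgenic liver, so the groups overlapped. The mean of the 37 G2/M members was 7.80, 7.90 and 8.04 in wild type and 8.17, 8.16 and 8.08 in transgenic liver, and here every transgenic array lay above every wild-type array. Within each array the G2/M mean minus the G1/S mean, which is unaffected by any shift of the whole array, was -0.08, 0.03 and 0.08 in wild type and 0.17, 0.19 and 0.18 in transgenic liver. The transgenic arrays lay closer together in this measure than the wild-type arrays, and above all of them. For the members with peaking transcripts the same measure was -0.16, -0.03 and 0.05 in wild type and 0.15, 0.18 and 0.12 in transgenic liver.

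**Figure D1:**
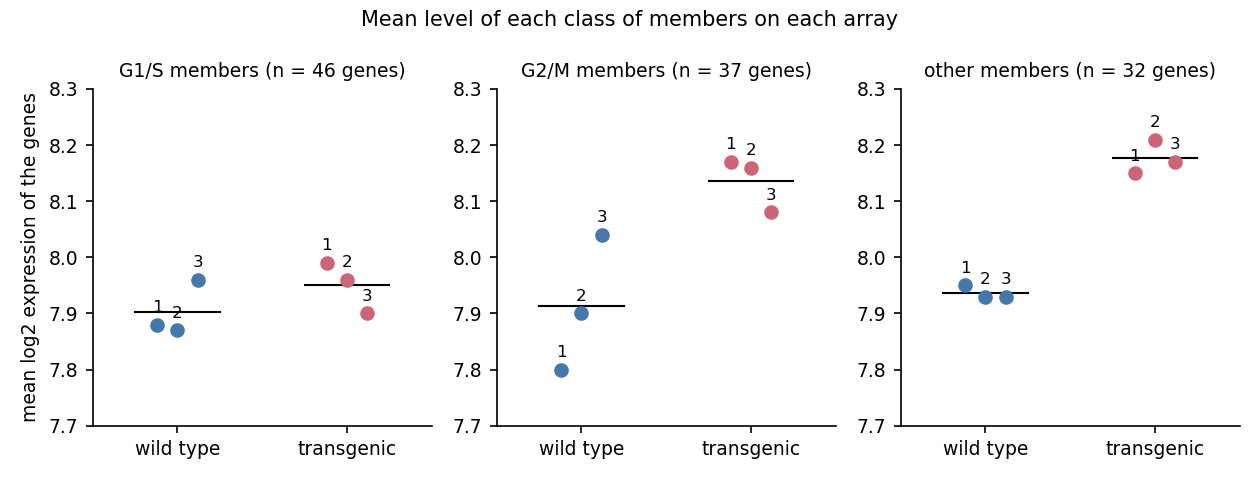
Mean log2 expression of the 46 G1/S members, the 37 G2/M members and the 32 members of other function on each array, as deposited; each point is 1 array with its replicate number and lines are group means (n = 3). The groups overlap for the G1/S members and are separate for the G2/M members, where wild-type replicate 1 is lowest at 7.80; with arrays scaled to the bacterial controls both class medians are well above 0 (0.44 and 0.62).

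The wild-type arrays were not alike in these genes. Wild-type replicate 1 gave the lowest value of all 6 arrays for 21 of 37 G2/M members and 12 of 46 G1/S members, and wild-type replicate 3 the highest of the wild-type arrays for 26 of 37 G2/M members. Without wild-type replicate 3, 22 of 37 G2/M members rose, against 16.9% of all genes. Without wild-type replicate 2, 8 rose (15.8% of all genes), without transgenic replicate 1 also 8 (16.9%) and without transgenic replicate 2, 9 (15.1%). In the G1/S class 6 of 46 rose without transgenic replicate 1. Without transgenic replicate 2 or 3, 4 of 46 rose, against 15.1% and 15.9% of all genes. Of the role groups, rises without transgenic replicate 1 were 1 each for G1 cyclins and kinases, mitotic cyclins, the anaphase-promoting complex group, and polymerases and nucleotide supply, and 2 for mitotic kinases, checkpoint and spindle. They were 4 each for licensing and centromere genes and 13 for other function, and the falls that changed were those of other function, to 1. Of the 47 members called, 29 were called with each array left out in turn, 7 of 12 in the G1/S class, 10 of 18 in the G2/M class and 12 of 17 among the rest.

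Of 9 cyclins and kinases of G1 phase, 2 were higher and 2 lower. These shares (22.2% each) were near those of all genes (19.9% and 20.4%). Cdk4, the kinase partner of the D cyclins, read 9.18, 9.25 and 9.10 in wild type and 9.93, 9.94 and 9.80 in transgenic liver, a rise of 0.71 (SE 0.07, 1.64-fold, adjusted p = 0.000279). Its 3 probe sets were all called higher. Ccnd1, the D cyclin induced by growth signals in liver, read 10.63, 10.65 and 10.43 in wild type and 10.13, 9.96 and 9.88 in transgenic liver, and the difference was -0.58 (SE 0.09, adjusted p = 0.00257), also on all 3 of its probe sets. Every Cdk4 value was higher and every Ccnd1 value lower in the transgenic group than in the wild-type group, so a D cyclin and its kinase diverged. With arrays scaled to the bacterial controls the Ccnd1 difference was -0.21 (adjusted p = 0.188).

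Cdk2, the kinase of the E and A cyclins, read 8.09, 7.97 and 8.17 in wild type and 7.81, 7.74 and 7.76 in transgenic liver, so the difference was -0.31 (SE 0.07, adjusted p = 0.014), and it turned to 0.06 with arrays scaled to the bacterial controls. Without transgenic replicate 2 its adjusted p was 0.0512. Ccne1, an E cyclin, read 7.41, 7.38 and 7.52 in wild type and 7.66, 7.69 and 7.60 in transgenic liver, a rise of 0.21 (SE 0.07, adjusted p = 0.0426) that was lost on leaving out any array but wild-type replicate 3 (adjusted p up to 0.127). The other 5 of these 9 genes did not pass. Cdc25a, the phosphatase that activates Cdk2, had separate groups and a difference of 0.23 (adjusted p = 0.0529), the D cyclins Ccnd2 and Ccnd3 differed by 0.14 and 0.03, Ccne2 by 0.00 and Cdk6 by -0.24.

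None of the 6 E2F genes measured passed. E2f1, an activating E2F, read 7.31, 7.28 and 7.37 in wild type and 7.39, 7.39 and 7.26 in transgenic liver, so the difference was 0.02 (SE 0.07). E2f4, a repressor that pairs with pocket proteins, read 5.16, 5.14 and 5.42 in wild type and 5.04, 5.05 and 4.82 in transgenic liver. Its difference of -0.27 (SE 0.10, adjusted p = 0.075) turned to 0.10 with arrays scaled to the bacterial controls. E2f6, a repressor that acts without pocket proteins, read 7.84, 7.58 and 7.46 in wild type and 7.89, 7.86 and 7.90 in transgenic liver, and differed by 0.26 (SE 0.10, adjusted p = 0.0767). In both genes the groups did not overlap. E2f3, E2f5 and E2f8 differed by -0.07, 0.16 and 0.14. At an unadjusted p under 0.05 by limma the count was 2 of 6, E2f4 and E2f6, beside 49.9% of all genes. After adjustment E2f4 passed with median centring, and E2f6 with array weights, with scaling to the bacterial controls and without wild-type replicate 1. E2f3 and E2f4 were among the dimmest 40% of genes on the array, where a change is harder to see.

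Origin licensing and firing genes rose for 4 of 17 members (23.5%, near the 19.9% of all genes) and fell for 1 (5.88%, against 20.4%). Cdc6, which loads the Mcm helicase onto origins, read 5.67, 5.98 and 6.18 in wild type and 6.67, 6.67 and 6.42 in transgenic liver, a rise of 0.65 (SE 0.14, 1.56-fold, adjusted p = 0.00769). Mcm7, a helicase subunit, read 10.70, 10.60 and 10.75 in wild type and 11.26, 11.18 and 11.08 in transgenic liver, a rise of 0.49 (SE 0.08, adjusted p = 0.00214) on 3 of its 4 probe sets. Both had every transgenic value above every wild-type value, and both calls held with each array left out.

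Mcm7 was the only one of the 6 subunits Mcm2 to Mcm7 to pass. Mcm2 read 9.55, 9.42 and 9.65 in wild type and 9.64, 9.49 and 9.68 in transgenic liver, so the difference was 0.06 (SE 0.09), and Mcm3, Mcm4, Mcm5 and Mcm6 differed by -0.09, 0.07, 0.07 and -0.13. The subunits act as 1 ring, and the median over the 6 was 0.06. Mcm10, which helps to activate the helicase at firing, went the other way. It read 8.14, 7.89 and 7.89 in wild type and 7.18, 7.18 and 7.20 in transgenic liver, so the difference was -0.79 (SE 0.09, 0.578-fold, adjusted p = 0.000335), the lowest of all 115 members. Both of its probe sets were called lower (the other gave -0.49), its 3 transgenic values lay almost at 1 level, and after scaling to the bacterial controls it was the only member still called lower, at -0.42 (adjusted p = 0.00745).

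Cdc7, the kinase that fires licensed origins, read 6.97, 6.78 and 6.99 in wild type and 7.08, 7.31 and 7.15 in transgenic liver, a rise of 0.27 (SE 0.09, adjusted p = 0.0472). That call was lost on leaving out any array but transgenic replicate 1 (adjusted p up to 0.147), and the mean of its 2 probe sets differed by 0.05. In the origin recognition complex, Orc4 rose by 0.25 (SE 0.07, adjusted p = 0.0203, lost without transgenic replicate 2 or 3, adjusted p up to 0.0751, and 0.04 without suffixed probe sets, whose a, s or x in the name marks probes that may match several transcripts or genes), and the other 5 subunits did not pass, with differences from -0.17 for Orc5 to 0.18 for Orc6 and a median of 0.14 over all 6. Cdc45, the helicase cofactor, differed by 0.18 with separate groups (adjusted p = 0.0969) and the dim Mcm9 by -0.25.

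**Figure D2:**
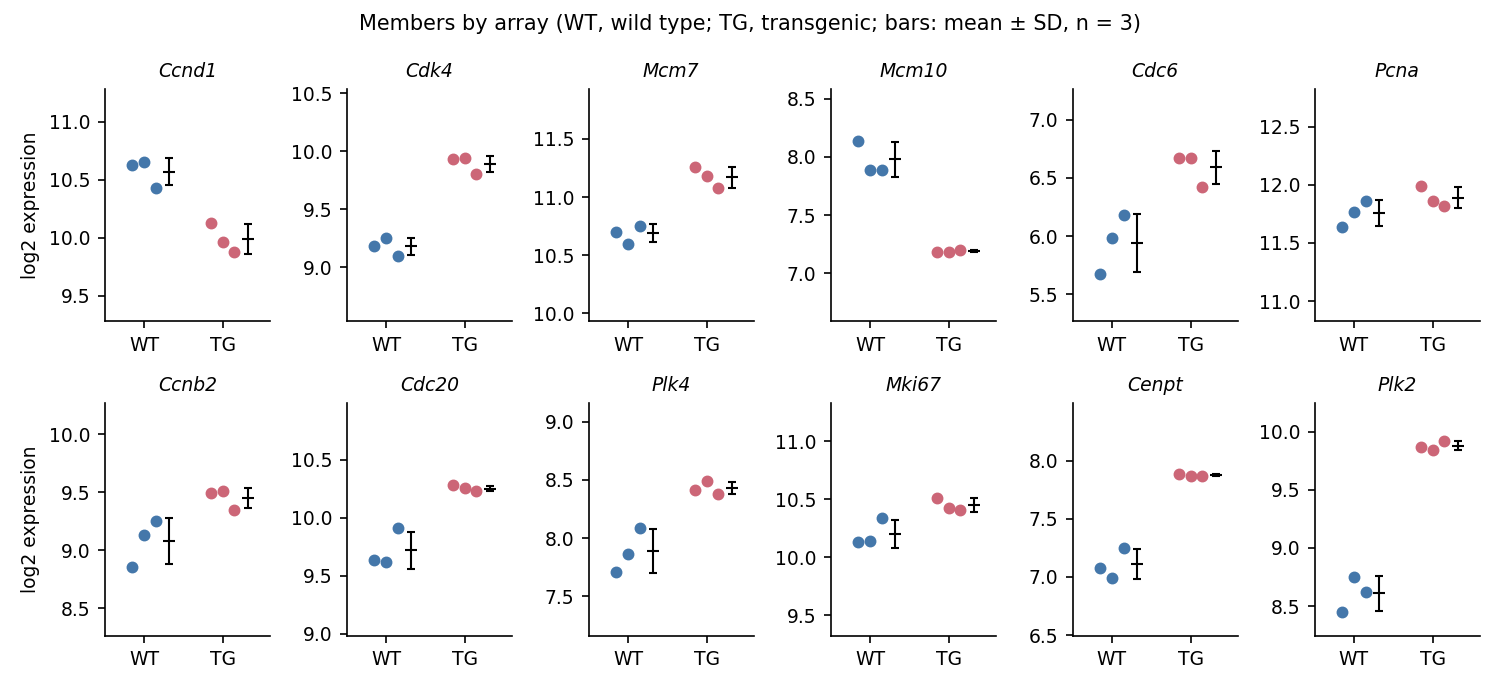
Log2 expression of 12 members on each of 3 wild-type (WT) and 3 transgenic (TG) arrays, replicates 1 to 3 from left to right, with group mean ± SD (n = 3); scales differ in position but each panel spans the same range. Cdk4, Mcm7, Cdc6, Plk4, Cenpt and Plk2 are higher and Mcm10 and Ccnd1 lower in every transgenic array, while the Pcna values overlap; only the Ccnd1 call is lost among these 8 with arrays scaled to the bacterial controls.

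Of the 14 members of polymerases and nucleotide supply, 2 rose (14.3%) and 1 fell (7.14%), both shares below those of all genes. Pola1, the catalytic subunit of the polymerase that starts new strands, read 7.28, 7.46 and 7.54 in wild type and 7.94, 7.81 and 7.74 in transgenic liver, a rise of 0.40 (SE 0.09, adjusted p = 0.0105). Pold4, the small accessory subunit of polymerase delta, read 9.0, 9.13 and 8.89 in wild type and 8.46, 8.44 and 8.31 in transgenic liver, so the difference was -0.61 (SE 0.09, adjusted p = 0.00121), which was -0.23 (adjusted p = 0.108) with arrays scaled to the bacterial controls. The remaining 8 of the 10 subunits did not pass and lay between -0.09 and 0.10, the catalytic subunits Pold1 (-0.09) and Pole (0.10) among them.

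Pcna, the sliding clamp of the polymerases, read 11.64, 11.77 and 11.86 in wild type and 11.99, 11.86 and 11.82 in transgenic liver, so the difference was 0.13 (SE 0.08, adjusted p = 0.239) with overlapping groups. Ribonucleotide reductase makes the deoxynucleotides. Its large subunit gene Rrm1 read 9.32, 9.31 and 9.56 in wild type and 9.66, 9.65 and 9.64 in transgenic liver, a rise of 0.25 (SE 0.08, adjusted p = 0.0454), lost on leaving out any array but wild-type replicate 3 (adjusted p up to 0.135). The other Rrm1 probe set differed by 0.15 (adjusted p = 0.311 over probe sets), and the mean of both was not called. Rrm2, the S-phase subunit of the enzyme, read 9.97, 10.11 and 10.53 in wild type and 10.65, 10.65 and 10.50 in transgenic liver, so the difference was 0.40 (SE 0.14, adjusted p = 0.0556) and did not pass, while another of its 3 probe sets did (0.42, adjusted p = 0.0462 over probe sets). Tyms, thymidylate synthase, differed by 0.09.

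**Figure D3:**
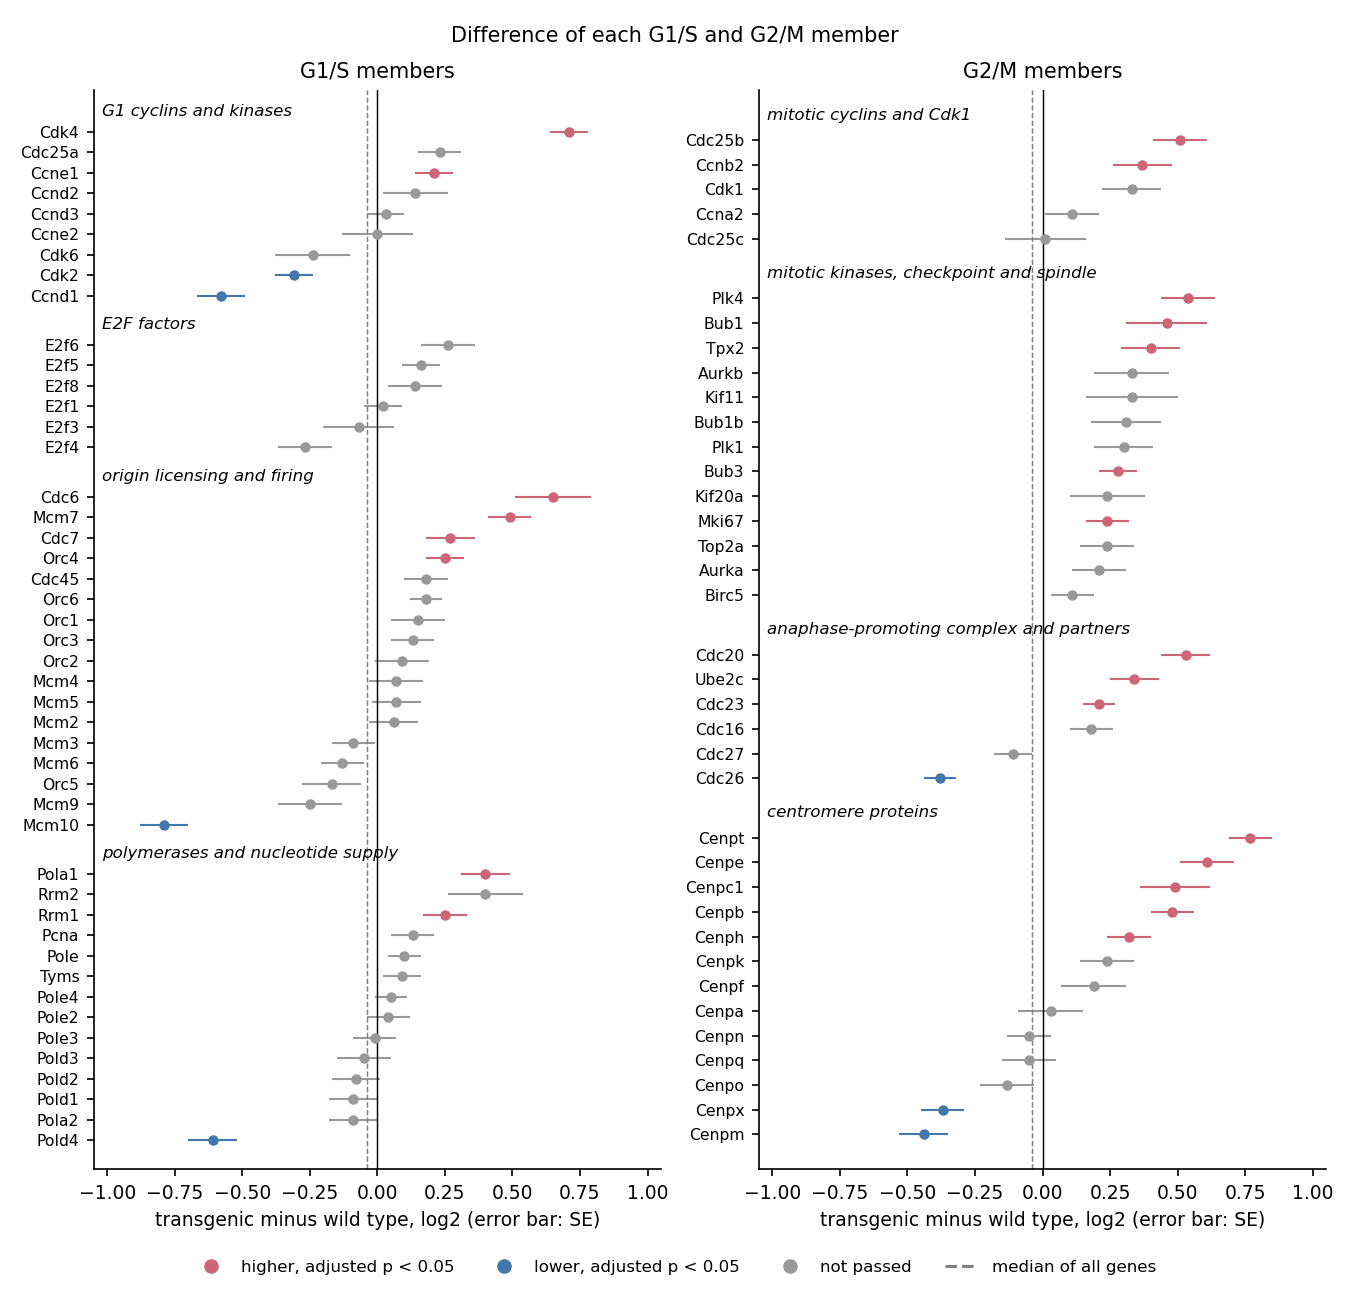
Transgenic minus wild-type difference (log2, error bars SE of the limma fit, n = 3 arrays per group) of the 46 G1/S members (left) and 37 G2/M members (right), grouped by role; colours mark calls at an adjusted p under 0.05 and the dashed line is the median of all genes, -0.04. Most G2/M members lie right of 0, with a median of 0.24, and G1/S members lie around 0.07; scaling to the bacterial controls moves every point right by about the same amount, so that Cdk2 turns from -0.31 to 0.06.

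Among the mitotic cyclins and their activators, 2 of 5 members rose (40%, against 19.9% of all genes) and 0 fell. Cdc25b, a phosphatase that starts mitosis, read 7.13, 6.81 and 7.13 in wild type and 7.56, 7.5 and 7.54 in transgenic liver, a rise of 0.51 (SE 0.10, 1.42-fold, adjusted p = 0.00521). Ccnb2, a B cyclin, read 8.86, 9.13 and 9.25 in wild type and 9.49, 9.51 and 9.35 in transgenic liver, a rise of 0.37 (SE 0.11, adjusted p = 0.0288), lost on dropping wild-type replicate 2 or transgenic replicate 1 or 2 (adjusted p up to 0.0882). In both genes all transgenic values exceeded all wild-type values. Cdk1, the kinase of the mitotic cyclins, read 9.0, 9.19 and 9.4 in wild type and 9.59, 9.60 and 9.39 in transgenic liver. Its difference of 0.33 (SE 0.11) had an adjusted p of 0.0523, and wild-type replicate 3 lay just above transgenic replicate 3. Ccna2, the A cyclin of S phase and G2, read 9.86, 9.95 and 10.20 in wild type and 10.16, 10.11 and 10.07 in transgenic liver, so the difference was 0.11 (SE 0.10), and Cdc25c differed by 0.01.

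The 13 genes of mitotic kinases, the spindle checkpoint and the spindle all had differences above 0, from 0.11 for Birc5 to 0.54 for Plk4, and 5 passed (38.5%, against 19.9% of all genes). Plk4, the kinase of centriole duplication, read 7.71, 7.86 and 8.09 in wild type and 8.41, 8.49 and 8.38 in transgenic liver, a rise of 0.54 (SE 0.10, 1.46-fold, adjusted p = 0.00478). All 3 of its probe sets were called higher (0.34 without suffixed probe sets), and the call held with each array left out. Bub1, a checkpoint kinase, read 7.67, 8.11 and 8.28 in wild type and 8.58, 8.47 and 8.38 in transgenic liver, a rise of 0.46 (SE 0.15, adjusted p = 0.0445). Tpx2, a spindle assembly factor that activates Aurora A, read 6.73, 6.82 and 7.11 in wild type and 7.32, 7.38 and 7.17 in transgenic liver, a rise of 0.40 (SE 0.11, adjusted p = 0.0229). Both calls were lost on leaving out any of 4 arrays, transgenic replicates 1 and 2 and wild-type replicate 2 among them (adjusted p up to 0.12 for Bub1, where transgenic replicate 3 was the fourth, and 0.0766 for Tpx2, where wild-type replicate 1 was). Without wild-type replicate 1 the Bub1 difference was 0.28 (adjusted p = 0.0488). The other Tpx2 probe set differed by -0.03, and the mean of both by 0.19 (adjusted p = 0.1), which was not called.

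Mki67, which encodes the proliferation marker Ki-67, read 10.13, 10.14 and 10.34 in wild type and 10.51, 10.42 and 10.41 in transgenic liver. The groups did not overlap, but the rise was 0.24 (SE 0.08, 1.18-fold, adjusted p = 0.0451) and was lost on leaving out any array but wild-type replicate 3 (adjusted p up to 0.13). Top2a, the topoisomerase that untangles chromosomes, read 9.48, 9.63 and 9.80 in wild type and 9.96, 9.87 and 9.80 in transgenic liver, so the difference was 0.24 (SE 0.10, adjusted p = 0.0794). Aurkb, Aurora kinase B, read 7.04, 7.28 and 7.52 in wild type and 7.78, 7.59 and 7.45 in transgenic liver, so the difference was 0.33 (SE 0.14, adjusted p = 0.09). In these genes, as in Cdk1, wild-type replicate 1 was lowest and the wild-type values spread more widely than the transgenic ones. Bub3, a checkpoint adaptor, rose by 0.28 (SE 0.07, adjusted p = 0.0153) on the brightest of its 4 probe sets, but the mean of the 4 differed by -0.02, and without suffixed probe sets it differed by -0.04.

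Of 6 members of the anaphase-promoting complex and its partners, 3 rose (50%) and 1 fell (16.7%), beside 19.9% and 20.4% of all genes. Cdc20, the activator that starts anaphase, read 9.64, 9.62 and 9.91 in wild type and 10.28, 10.26 and 10.23 in transgenic liver, a rise of 0.53 (SE 0.09, 1.44-fold, adjusted p = 0.0029). The other 2 of its probe sets differed by 0.31 (adjusted p = 0.0516 over probe sets) and 0.00, and the mean of the 3 was 0.28 (adjusted p = 0.0338). Without suffixed probe sets it was 0.31 and not called (adjusted p = 0.0521). Ube2c, the ubiquitin-conjugating enzyme of the complex, read 9.44, 9.55 and 9.68 in wild type and 9.97, 9.96 and 9.78 in transgenic liver, a rise of 0.34 (SE 0.09, adjusted p = 0.0186), lost without wild-type replicate 2 or transgenic replicate 1 or 2 (adjusted p up to 0.0645). Their transcripts are among those known to peak in mitosis, while those of the core subunits vary little over the cycle. Among the core subunits, Cdc23 read 7.68, 7.63 and 7.67 in wild type and 7.86, 7.81 and 7.92 in transgenic liver, a rise of 0.21 (SE 0.06, adjusted p = 0.0362) that was lost on leaving out any array (adjusted p up to 0.109) and was 0.03 over the mean of its 2 probe sets. Cdc26 read 9.46, 9.38 and 9.37 in wild type and 9.01, 9.0 and 9.04 in transgenic liver, so the difference was -0.38 (SE 0.06, adjusted p = 0.00256), which was -0.01 with arrays scaled to the bacterial controls. Cdc16 and Cdc27 did not pass, at 0.18 and -0.11.

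Centromere proteins rose for 5 of 13 members (38.5%, against 19.9% of all genes) and fell for 2 (15.4%, against 20.4%). Cenpt, which links centromeric chromatin to the microtubule-binding Ndc80 complex, read 7.08, 6.99 and 7.25 in wild type and 7.89, 7.87 and 7.87 in transgenic liver, a rise of 0.77 (SE 0.08, 1.71-fold, adjusted p = 0.000306), the highest of the 83 members with a cell cycle role. Cenpe, a kinesin of the kinetochore, read 4.24, 4.28 and 4.54 in wild type and 5.04, 4.91 and 4.91 in transgenic liver, a rise of 0.61 (SE 0.10, adjusted p = 0.00219) at a dim level. Cenpc1, which binds the centromeric nucleosome, read 6.89, 7.24 and 7.44 in wild type and 7.74, 7.64 and 7.66 in transgenic liver, a rise of 0.49 (SE 0.13, adjusted p = 0.0208), lost without transgenic replicate 1 or 3 (adjusted p up to 0.0618). In each of these genes the transgenic values lay close together and above all wild-type values. Cenpb, which binds centromeric repeats, rose by 0.48 (0.14 and not called over the mean of its 2 probe sets) and the inner kinetochore subunit Cenph by 0.32.

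Of the centromere genes that fell, Cenpm, an inner kinetochore subunit, read 8.14, 8.25 and 8.14 in wild type and 7.69, 7.59 and 7.91 in transgenic liver, so the difference was -0.44 (SE 0.09, adjusted p = 0.00812). Cenpx, a histone-fold partner of Cenpt that also serves DNA repair, read 8.43, 8.45 and 8.26 in wild type and 8.08, 7.93 and 8.01 in transgenic liver, so the difference was -0.37 (SE 0.08, adjusted p = 0.00874). Neither was called with arrays scaled to the bacterial controls, with Cenpm at -0.07. Cenpa, the centromeric histone, differed by 0.03 (SE 0.12) and the other 5 lay between -0.13 for Cenpo and 0.24 for Cenpk.

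Of the 32 members of other function, 14 rose (43.8%, against 19.9% of all genes) and 3 fell (9.38%, against 20.4%), with a median difference of 0.24. Their mean was 7.95, 7.93 and 7.93 in wild type and 8.15, 8.21 and 8.17 in transgenic liver, without the wild-type spread of the mitotic genes. Plk2, a stress- and growth-induced kinase outside the mitotic programme, read 8.45, 8.75 and 8.62 in wild type and 9.87, 9.84 and 9.92 in transgenic liver, a rise of 1.27 (SE 0.09, 2.41-fold, adjusted p = 4.25e-05). Cdc73, a subunit of the Paf1 transcription elongation complex, read 7.89, 7.85 and 8.0 in wild type and 8.66, 8.83 and 8.75 in transgenic liver, a rise of 0.83 (adjusted p = 0.000167). Another Cdc73 probe set was called lower at -0.48, and the mean of the 4 probe sets differed by 0.14 and was not called. Cdk20 read 5.73, 6.14 and 6.27 in wild type and 6.47, 6.87 and 6.83 in transgenic liver, a rise of 0.68 (SE 0.16, adjusted p = 0.0129).

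Cdk7, the Cdk-activating and transcription kinase, read 8.20, 8.35 and 8.3 in wild type and 8.93, 9.05 and 8.89 in transgenic liver, a rise of 0.68 (SE 0.08, 1.6-fold, adjusted p = 0.000391) on both of its probe sets. Among the 8 genes of Cdc42, a GTPase of cell polarity, and its partners, 4 rose (50%, against 19.9% of all genes) and 0 fell (against 20.4%). Those that rose were Cdc42 by 0.35, Cdc42ep1 by 0.40, Cdc42se1 by 0.41 and Cdc42ep5 by 0.61. Another Cdc42ep5 probe set was called lower at -0.31, and the mean of the Cdc42ep5 probe sets (0.15) was not called. Cdc42se1 was 0.80 without suffixed probe sets. The remaining rises were Cenpv (0.61), Cdc37 (0.40), Cdk5 (0.39), Poldip2 (0.31), Cdc34 (0.30) and Cdk8 (0.24), of which Cdc37 was lost on leaving out any of 4 arrays (adjusted p up to 0.0646) and Cdk8 on leaving out any but wild-type replicate 1 (up to 0.149). Over the mean of their probe sets Cdc37 differed by 0.19 (adjusted p = 0.0544) and Cdk5 by 0.14 (adjusted p = 0.156), neither of them called. Cenpv carries a centromere name but acts mainly through the cytoskeleton and chromatin, Cdc37 is an Hsp90 cochaperone for kinases and Cdk5 is best known as a kinase of neurons.

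The 3 members of other function that fell were Ccna1, Ccnb1ip1 and Cdc123. Ccna1, a cyclin of germ cells, read 3.92, 3.92 and 3.78 in wild type and 3.68, 3.45 and 3.44 in transgenic liver, so the difference was -0.35 (SE 0.09, adjusted p = 0.0167) at a dim level. Ccnb1ip1, a factor of meiotic recombination, read 4.31, 4.20 and 4.38 in wild type and 4.02, 4.06 and 4.02 in transgenic liver, so the difference was -0.26 (SE 0.07, adjusted p = 0.0214). Cdc123, which helps to assemble the translation initiation factor eIF2, read 10.95, 10.98 and 11.03 in wild type and 10.79, 10.79 and 10.77 in transgenic liver, so the difference was -0.20 (SE 0.06, adjusted p = 0.0342). All 3 turned to differences above 0 with arrays scaled to the bacterial controls (0.02, 0.11 and 0.17), and each lost its call on leaving out 3 or more single arrays.

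The share of promoters with each motif differed between the classes. Of 39 G1/S members with a RefSeq window of 300 bases (250 before to 50 after the start), 20 held an E2F match (51.3%), against 9 of 31 G2/M members (29.0%), 5 of 30 other members (16.7%) and 15.1% of 9887 genes on the array. The CHR element was in 14 of 31 G2/M windows (45.2%), 5 of 39 G1/S windows (12.8%) and 13.0% of all, and each of those 14 G2/M windows also held a CCAAT box. Among G2/M members with peaking transcripts, 12 of 16 (75%) held a CHR element. The CCAAT box was in 77.4% of G2/M, 53.8% of G1/S and 38.1% of all windows. A match describes the letters in the window and does not show that a factor binds there.

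Differences with and without a motif varied from motif to motif. Of the 20 G1/S members with an E2F match 5 rose and 1 fell (median difference 0.10), and of the 19 without 3 rose and 2 fell (median 0.06). Those with a match that rose were Cdc6, Cdc7, Mcm7, Pola1 and Rrm1, and Cdk2 fell. Of the 14 G2/M members with a CHR element 5 rose and 0 fell (median 0.29), and of the 17 without 8 rose and 3 fell (median 0.24). Among peaking G2/M members the median was 0.30 for the 12 with a CHR element and 0.48 for the 4 without. For the CCAAT box the medians with and without it were 0.29 and 0.18 in the G2/M class, 0.09 and 0.05 in the G1/S class, 0.15 and 0.03 for its peaking members, and 0.04 and 0.30 among members of other function. Over all genes on the array, those with a CHR element had a median of -0.04 and those with an E2F match of 0.04. Of all 1489 genes with an E2F match 375 rose and 235 fell, and of the 8398 without it 1635 rose and 1742 fell. Of all 1283 with a CHR element 256 rose and 247 fell, and of the 8604 without it 1754 rose and 1730 fell. These medians and counts are descriptions with no test.

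**Figure D4:**
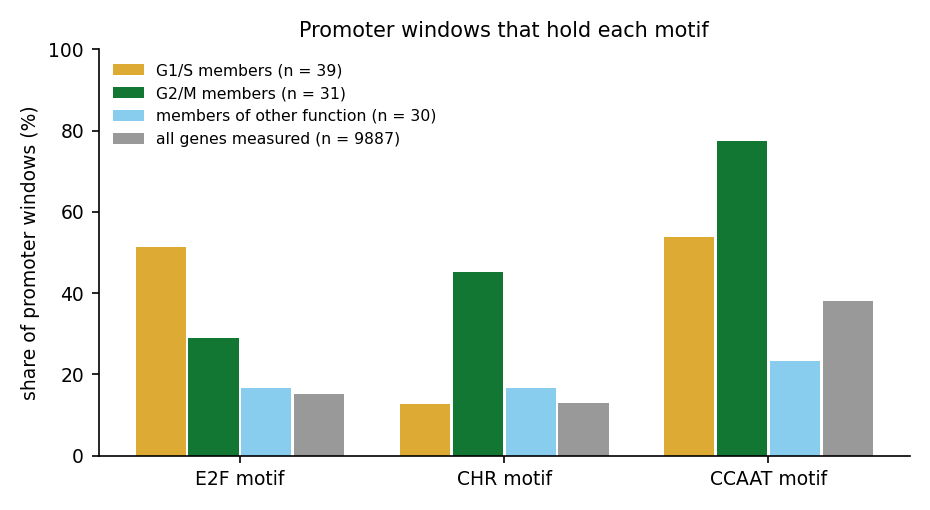
Share (%) of promoter windows of 300 bases that hold at least 1 match to the E2F motif, the CHR element or the CCAAT box, for 39 G1/S members, 31 G2/M members, 30 members of other function and 9887 genes on the array. E2F matches are most frequent in the G1/S class (51.3%) and CHR elements in the G2/M class (45.2%).

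Further genes of the pathway, listed by role and outside the symbol rule, were counted in the same way. Of 36 mitosis genes measured, 15 rose and 2 fell (41.7% and 5.56%, median 0.28). Of 22 replication genes 3 rose and 1 fell (13.6% and 4.55%, median 0.09), and of 11 Cdk inhibitors and pocket proteins with their partners 3 rose and 1 fell (27.3% and 9.09%, median -0.01). Over all genes 19.9% rose and 20.4% fell. Without transgenic replicate 1, 10 mitosis genes (27.8%), 1 replication gene (4.55%) and 2 inhibitors or pocket proteins (18.2%) rose, and 0, 1 and 1 fell. In that fit 16.9% of all genes rose and 16.7% fell. Ndc80, a kinetochore subunit, rose by 0.63 (adjusted p = 0.00178) and Ect2, which positions the cleavage furrow, by 0.62 (adjusted p = 0.00339). Mybl2, which encodes B-MYB, and the centrosome kinase gene Nek2 were called lower at -0.33 and -0.28, but these turned to 0.04 and 0.09 on scaling to the bacterial controls, and the calls were lost on leaving out any array but wild-type replicate 1 for Mybl2 and any but transgenic replicate 3 for Nek2. In replication, the histone chaperone subunit Chaf1b rose by 0.47 (lost without wild-type replicate 2) and the licensing factor gene Cdt1 by 0.25 (lost without wild-type replicate 1 or 2 or transgenic replicate 1 or 2, and 0.45 without suffixed probe sets), while Tk1, thymidine kinase, was called lower at -0.53 (adjusted p = 0.00383) and read -0.16, no longer called, with arrays scaled to the bacterial controls.

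Inhibitors of the G1 kinases were called in both directions. Cdkn1a, which encodes p21, read 7.59, 8.89 and 8.66 in wild type and 9.59, 9.37 and 9.28 in transgenic liver, a rise of 1.03 (adjusted p = 0.03), lost without any 1 of the transgenic arrays and under moderation with a trend and robust variances. Without wild-type replicate 1, its lowest value, the difference was 0.63 (adjusted p = 0.00642). Cdkn2b, which encodes p15, an inhibitor of Cdk4 and Cdk6, read 6.32, 6.01 and 5.79 in wild type and 7.20, 7.18 and 6.56 in transgenic liver, a rise of 0.94 (adjusted p = 0.0077). Cdkn1c, which encodes p57, read 10.14, 10.23 and 10.19 in wild type and 8.93, 9.20 and 9.07 in transgenic liver, so the difference was -1.12 (adjusted p = 6.1e-05). Rb1, the retinoblastoma pocket protein that holds E2F factors, was the third that rose, by 0.48, and is named outside the rule after its value was seen.

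Markers of some other cells moved with the groups. The counts below stand beside 19.9% of all genes that rose and 20.4% that fell. Of 11 erythroid markers 6 rose and 0 fell, with means of 7.52, 7.47 and 7.69 in wild type and 8.17, 8.01 and 7.96 in transgenic liver. In 7 of the 11 every transgenic value lay above every wild-type value (63.6%, against 25.6% of all genes). The summed level of the erythroid markers overlapped between the groups (12.68 to 12.89 and 12.68 to 13.07 as log2 of the sum). That sum is weighted to its brightest gene, Tfrc, which differed by -0.32 and did not pass. Tfrc read 12.10, 12.28 and 12.38 in wild type and 12.24, 11.83 and 11.74 in transgenic liver. Of 10 granulocyte markers 7 fell and 0 rose (means 9.05, 9.95 and 10.11, then 8.44, 7.62 and 8.17), and all 9 lymphoid markers fell (means 5.93, 6.44 and 6.57, then 4.98, 5.07 and 5.09). Wild-type replicate 1 was thus lowest of its group in granulocyte, lymphoid and G2/M means alike. The transgenic arrays were low in granulocyte and lymphoid means and high in G2/M members. Summed levels did not overlap for granulocyte markers (13.64 to 14.74 in wild type, 12.12 to 12.96 in transgenic liver) or lymphoid markers (9.51 to 10.48 and 8.46 to 8.65). The 12 hepatocyte markers averaged 13.42 to 13.46 in wild type and 12.60 to 12.72 in transgenic liver, so liver identity was plain in both groups, and 9 of them fell. Of 8 cholangiocyte markers 5 rose (means 5.73 to 6.88, then 7.74 to 8.02). Of 9 macrophage markers 3 fell and 0 rose, with overlapping means (10.51 to 10.82, then 10.23 to 10.53) and overlapping summed levels (14.03 to 14.38, then 13.75 to 14.10). Of 8 endothelial markers 1 rose and 5 fell, also with overlapping means (9.02 to 9.16, then 8.91 to 9.06) and summed levels (12.33 to 12.55, then 12.32 to 12.51). Of 8 stellate and fibroblast markers 3 fell and 0 rose (median -0.07), with separate means (9.79 to 9.83, then 9.52 to 9.70) and summed levels (14.08 to 14.17, then 13.80 to 13.96). Without transgenic replicate 1, 16.9% of all genes rose and 16.7% fell. Then 5 erythroid markers rose (45.5%) and 1 fell, 8 hepatocyte (66.7%) and 2 macrophage markers (22.2%) fell, and 0 endothelial markers rose. The other marker counts did not move. The files give no detection calls, so no marker can be said to be at 0. The part of these cells in the cell cycle values was not tested.

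**Figure D5:**
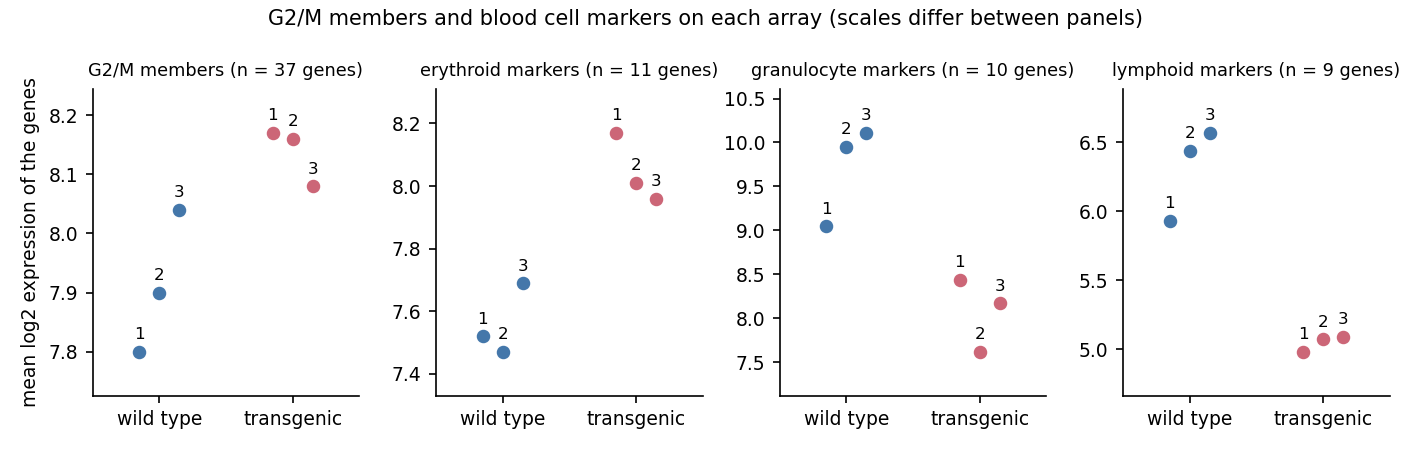
Mean log2 expression of the 37 G2/M members and of 11 erythroid, 10 granulocyte and 9 lymphoid marker genes on each array (points with replicate numbers; scales differ between panels), as deposited. G2/M members and erythroid markers are higher and granulocyte and lymphoid markers lower in the transgenic arrays, and wild-type replicate 1 is lowest of its group for G2/M, granulocyte and lymphoid genes; scaling to the bacterial controls, which moves the median of all genes to 0.33, was not drawn.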

How the data were processed

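Liver RNA was extracted with Trizol and RNeasy columns and hybridised as biotinylated cRNA, per the labels' protocols. Log2 expression per probe set was computed by the authors with affy and RMA, per the submitters' processing notes (versions not given). RMA equalises the distributions of the arrays, so a change in total RNA per cell is not visible. Of 22690 probe sets, 20380 had 1 gene in the platform annotation (20351 matched to RefSeq by Entrez identifier). For each of 12393 genes the probe set of highest mean across the 6 arrays was used. Groups came from the titles, which call the arrays biological replicates.

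All genes were fitted with limma 3.58.1 in R 4.3.3 (lmFit then eBayes, without covariates), two-sided, with Benjamini-Hochberg adjustment over 12393 genes and a threshold of 0.05. Exact permutation of 3 against 3 arrays cannot go below p = 0.1. A run of the fit on simulated data used independent genes of which few were changed. On these arrays 40.3% of all genes were called, so that run does not check the calls above. Members, roles, lists, tests and the alternatives were chosen with earlier results of these data known. In each role group up to 3 members called in each direction, by largest change, are given by array (or the 2 of largest change in a group with no call), with Ccnd1, Ccne1, E2f1, Mcm2, Pcna, Rrm2, Ccna2, Cdk1, Mki67, Top2a, Aurkb and Cdc20 always given, and other called members by their difference. Replicate numbers did not pair the arrays (correlation of deviations for same numbers -0.103, -0.0218 and 0.0574). Promoter windows came from RefSeq (GRCm38.p6), for 100 of 115 members, the first window listed for each gene. Python 3.11.15 with pandas 2.3.3 and matplotlib 3.10.9 made the summaries and plots.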

Additional observations from a re-analysis of the deposited data

How the results depend on the processing

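Of the 47 members called, 18 kept their call under every alternative in which they were measured: the mean of probe sets, filters, normalizations, moderation, array weights, a replicate block and each array left out. Of these 18, 12 were in every alternative. Cdc6, Cdk20 and Cenpe were not among the genes kept without the dimmest 40%, and Cdc6, Cdc25b, Cdk20, Cenph and Mcm7 had no gene-level value without suffixed probe sets. Of all genes 19.9% rose in the main fit, 17.8% without suffixed probe sets, 17.3% with quantile normalization again and 17.4% with median centring. With cyclic loess it was 16.5%, with the replicate block 17.0% and with scaling to the bacterial controls 56.6%. With an array left out it was 15.1% to 19.5%. Falls were 20.4% in the main fit, 5.25% with that scaling and 15.3% to 19.4% with an array left out. Beside these shares, counts of members that moved were as follows. For all members, 37 higher became 24 with cyclic loess, 93 with scaling to the bacterial controls and 23 with cell cycle roles only, and 25 to 42 with an array left out; 10 lower became 1 with that scaling and 6 to 11 with an array left out. For the G1/S class, 8 higher became 5 without suffixed probe sets, with quantile normalization again, with median centring, with the replicate block and for peaking transcripts, 4 with cyclic loess, 34 with that scaling and 4 to 8 with an array left out; 4 lower became 1 with that scaling and 1 for peaking transcripts. For the G2/M class, 15 higher became 9 without suffixed probe sets, with cyclic loess and with the replicate block, 32 with that scaling, 8 for peaking transcripts and 8 to 22 with an array left out; 3 lower became 0 with that scaling (at which 32 rose) and 0 for peaking transcripts. That scaling moved the medians to 0.53 for all members, 0.44 for G1/S and 0.62 for G2/M. It shifts the difference of every gene alike, as does median centring, so neither can change the excess over the median of all genes. The other moderation and the replicate block leave the differences as they were. Across all settings the excess ran from 0.14 to 0.22 for all members, 0.03 to 0.14 for G1/S and 0.20 to 0.36 for G2/M. Reversed differences were Cdk2 (0.06), Ccna1 (0.02), Ccnb1ip1 (0.11) and Cdc123 (0.17) with that scaling, and Bub3 with the mean of its probe sets (-0.02) or without suffixed ones (-0.04). The cause of these shifts was not tested. Of the 22 called members with over 1 probe set, 6 had all of them called the same way. Signal over background is unknown, so 19 members among the dimmest 40% of genes are the least certain.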

Other observations

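Probe sets of 1 gene often disagreed among the members. Of 54 members with more than 1 probe set, Cdc42ep5 and Cdc73 had probe sets called in opposite directions. Another 4 members that did not pass, Cdc42ep3, Orc2, Pole3 and Rrm2, had a probe set that did. The members whose probe sets were all called the same way were Ccnd1, Cdc42se1, Cdk4, Cdk7, Mcm10 and Plk4.

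Wild-type replicate 1 gave the lowest of the 6 values for 2011 of 12393 genes on the array, beside 21 of 37 G2/M members and 16 of the 21 with peaking transcripts.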
